A study of Rattus norvegicus with 15 samples.

Results

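Mitosis and cell division genes were followed in dorsal CA1 of the rat hippocampus, as the rows of a gene-level read count table for 34 listed genes. A row was present for 33 of the 34, out of 22314 genes in all; the other listed gene, Ccnb2, was not analysed here. The list was drawn up with results of these libraries known, so the differences below are descriptions of its members, and no p-value is given for a member. The 15 libraries came from male Sprague-Dawley rats, wild type by genotype and 8 to 9 weeks old, that had siRNA injected into dorsal CA1. They form 3 groups of 5: scrambled siRNA without training (naive libraries, replicates 1, 2, 9, 11 and 12), the same siRNA followed by contextual fear conditioning (scrambled trained libraries, replicates 5, 6, 10, 15 and 16) and Rnf20 siRNA with the same training (Rnf20-labelled libraries, replicates 4, 8, 14, 18 and 20). Every group thus carried an injection and an siRNA, and the series' design text places training 5 days after the injection. The tissue held all brain cell types, so that more cells of a type and more RNA per cell cannot be told apart. The labels do not say that each library came from its own animal.

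Total counts were 12537250 to 20644425 per library, and members held between 2 and 1187 reads in a library. Rnf20 itself was at 39.1 to 44.7 CPM (CPM is a count relative to the library's total, scaled by TMM) in naive, 36.4 to 48.5 CPM in scrambled trained and 38.3 to 44.6 CPM in Rnf20-labelled libraries. The siRNA label was therefore not matched by a lower transcript, and that group is named by its label only. CA1 and pan-neuronal markers summed to 7787 to 9751 CPM in naive libraries, and lay below that range in scrambled trained replicates 10 and 15 (5303 and 6805 CPM) and Rnf20-labelled replicate 18 (6349 CPM). Scrambled trained replicates 10 and 15 and Rnf20-labelled replicates 14 and 18 stood apart from the rest along the main axis of an earlier analysis of these counts. Choroid plexus markers, from the ventricle beside the hippocampus, were nearly missing in scrambled trained replicates 5 and 16 and Rnf20-labelled replicate 20. Medians without each of these sets of libraries stand beside the comparisons.

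Mitosis is driven by the cyclin-dependent kinase Cdk1 with its cyclins, which start chromosome condensation and spindle assembly. Kinetochores then bind chromosomes to spindle microtubules, the spindle checkpoint holds the anaphase-promoting complex (APC/C) in check until all are attached, and cytokinesis divides the cell. The transcripts of these proteins are made mainly in G2 and mitosis, so they are widely used as marks of dividing cells. Mature CA1 neurons do not divide, while glia, glial precursors, vascular cells, immune cells and the progenitors of the nearby dentate gyrus can.

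Most mitotic transcripts stood at a low level in the naive libraries, and the members stood higher together in 5 of the 10 trained libraries. Single members could vary widely among the naive libraries, with Aurkb from 6.24 to 37.0 CPM and Kif2c from 0.331 to 2.49 CPM. Each member's CPM was divided by its mean over the naive libraries, and the median over the 33 members gives a library's level. That median was 0.774, 1.02, 1.12, 0.904 and 1.18 in naive replicates 1, 2, 9, 11 and 12. It was 0.943, 2.84, 3.89, 2.84 and 1.95 in scrambled trained replicates 5, 6, 10, 15 and 16, so that 4 of these 5 libraries lay above every naive one and replicate 5 lay among them. In Rnf20-labelled replicates 4, 8, 14, 18 and 20 it was 0.732, 1.35, 0.609, 2.69 and 0.958. Replicate 18 thus stood with the high scrambled trained libraries, replicate 8 slightly above the naive range and replicates 4 and 14 below it.

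The same libraries were high for nearly every member. Scrambled trained replicate 10 held the highest value of all 15 libraries for 28 of the 33 members, and Rnf20-labelled replicate 14 the lowest for 15. For 29 members the 5 highest libraries were exactly scrambled trained 6, 10, 15 and 16 and Rnf20-labelled 18. The other 4 members were Ndc80, Aurkb, Kif20a and Anln. Those 5 libraries were picked as the highest by the median over the same members, so part of this agreement is built in. Members above every naive library numbered 30 in scrambled trained replicates 6, 15 and 16, 32 in replicate 10 and 2 in replicate 5. Among Rnf20-labelled libraries they numbered 32 in replicate 18, 19 in replicate 8, 4 in replicate 20, 1 in replicate 4 and 0 in replicate 14. Replicate 14 had 18 members below every naive library and replicate 4 had 10. The matching shares of all genes were not worked out for single libraries. These counts therefore have no background to be judged against, and nothing is read from them.

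**Figure D1:**
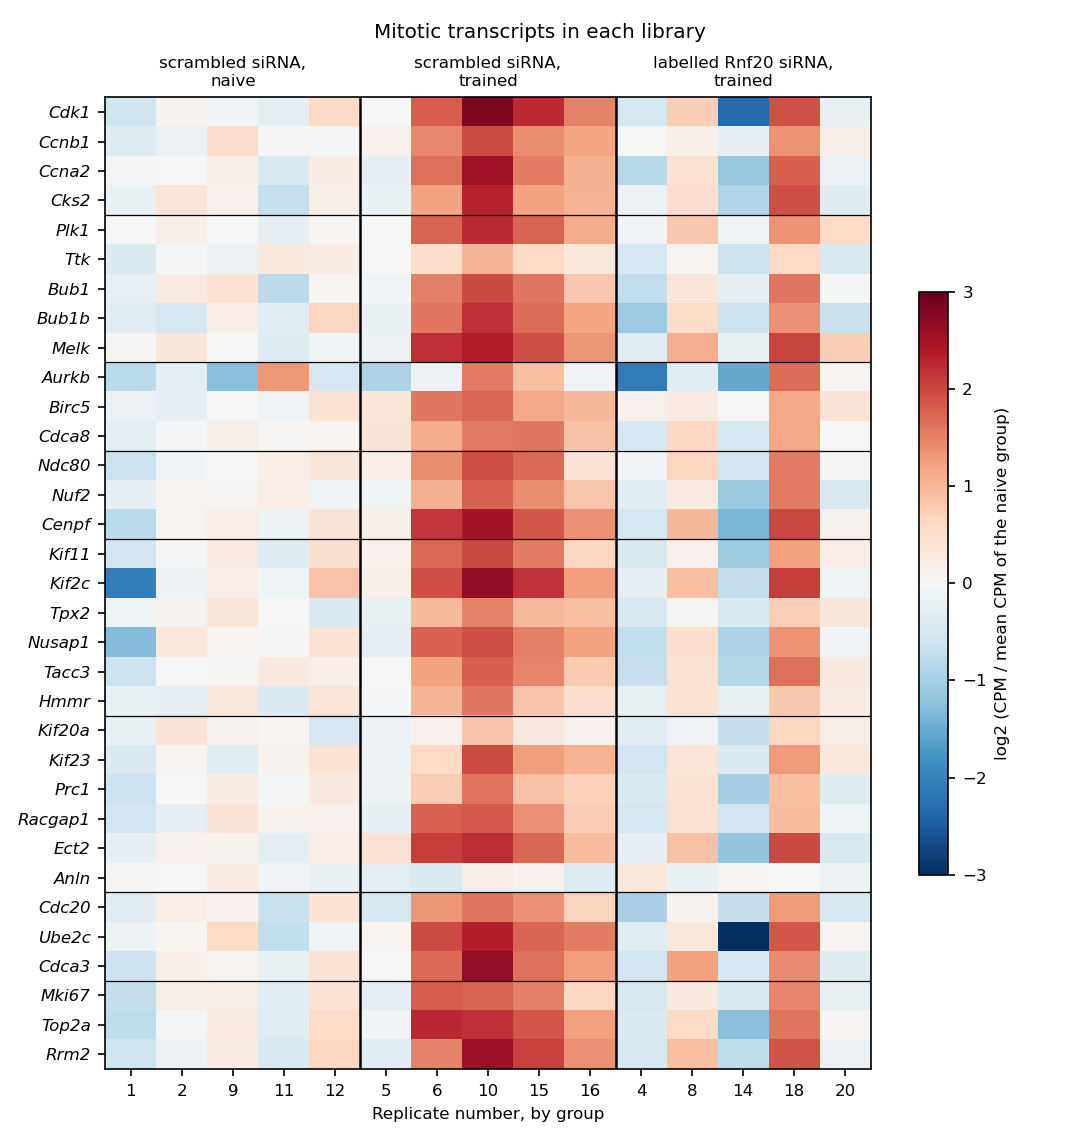
Heat map of the 33 members (rows, grouped by role with thin lines) in 15 libraries (columns, by group and replicate number); colour is log2 of CPM over the mean of the naive group, saturating at 3 in either direction. Scrambled trained replicates 6, 10, 15 and 16 and Rnf20-labelled replicate 18 are high across most rows, and Aurkb, Kif20a and Anln depart from the pattern.

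The members also share promoter letters that the list did not use. Many mitotic genes are known to carry a cell cycle genes homology region (CHR), bound by the DREAM and MuvB complexes, and upstream CCAAT boxes, bound by NF-Y. RefSeq promoter windows of assembly GRCr8, 250 bases before to 50 after a start, were found for 27 of the 33 members, and for genes with several starts the window listed first was taken. Aurkb, Ccna2, Racgap1, Rrm2, Tpx2 and Ube2c had no entry. The letters searched on both strands were TTTGAA and TTTAAA for the CHR, CCAAT for the box and TTCGCG for an E2F core. TTTAAA reads alike on both strands, and in Cdca8 and Mki67 a CHR and a CCAAT match share 1 base.

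A CHR match was present in 25 of the 27 member promoters (92.6%, exact 95% interval 75.7 to 99.1) and in 27.9% of all 27457 promoters of the table. CCAAT was present in 20 of 27 (74.1%, 53.7 to 88.9) against 37.7%, and at least 2 CCAAT matches in 16 of 27 (59.3%) against 11.5%. The E2F core was found in 3 of 27 (11.1%, 2.35 to 29.2), in Bub1, Cdca8 and Cdk1, against 4.21%. Of the 19 promoters with a CHR and a CCAAT match, 16 had the last CHR nearer the start, or further past it, than every CCAAT; the exceptions were Cdc20, Cdca8 and Mki67. All 51 CCAAT matches lay before the start, between 239 and 30 bases upstream. These matches are descriptions of letters, and no binding was measured in these libraries.

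The 150 bases before the start are printed for 5 members to show the arrangement, in lower case with CHR and CCAAT matches on either strand in capitals (TTCAAA and ATTGG are the reverse strand). Ccnb1 (GRCr8 chr2:33655226-33655375, minus strand), Plk1 (chr1:186147508-186147657, plus), Cdc20 (chr5:137255800-137255949, minus) and Cks2 (chr17:13727520-13727669, minus) were members high in the 5 libraries named above. Anln (chr8:29197514-29197663, minus) was the member whose fold change with training lay closest to 0.
Ccnb1: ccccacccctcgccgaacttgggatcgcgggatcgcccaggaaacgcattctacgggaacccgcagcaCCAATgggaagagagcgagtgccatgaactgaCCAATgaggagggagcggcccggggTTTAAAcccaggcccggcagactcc
Plk1: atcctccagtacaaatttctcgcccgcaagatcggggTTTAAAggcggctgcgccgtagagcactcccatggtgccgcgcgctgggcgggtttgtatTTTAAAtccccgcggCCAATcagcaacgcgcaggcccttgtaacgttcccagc
Cdc20: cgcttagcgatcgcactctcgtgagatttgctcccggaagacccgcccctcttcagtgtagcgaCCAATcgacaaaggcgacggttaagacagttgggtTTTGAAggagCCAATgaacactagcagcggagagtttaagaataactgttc
Cks2: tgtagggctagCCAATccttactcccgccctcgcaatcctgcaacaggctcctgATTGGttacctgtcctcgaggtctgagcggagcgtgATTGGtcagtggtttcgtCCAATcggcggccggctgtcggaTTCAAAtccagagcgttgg
Anln: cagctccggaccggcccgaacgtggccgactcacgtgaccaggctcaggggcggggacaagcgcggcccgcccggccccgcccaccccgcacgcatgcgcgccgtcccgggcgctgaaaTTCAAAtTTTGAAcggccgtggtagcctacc
Ccnb1 has 2 CCAAT boxes followed by TTTAAA 25 bases before the start, and Cks2 has 4 CCAAT matches followed by a reverse-strand CHR. Plk1 has TTTAAA on either side of the middle of the window and 1 CCAAT after them, and Cdc20 has its CHR between 2 CCAAT boxes. Anln holds 2 CHR matches and no CCAAT in these bases. Melk, the kinase described below, had none of the searched letters in its whole window, although it was high in the same 5 libraries.

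**Figure D2:**
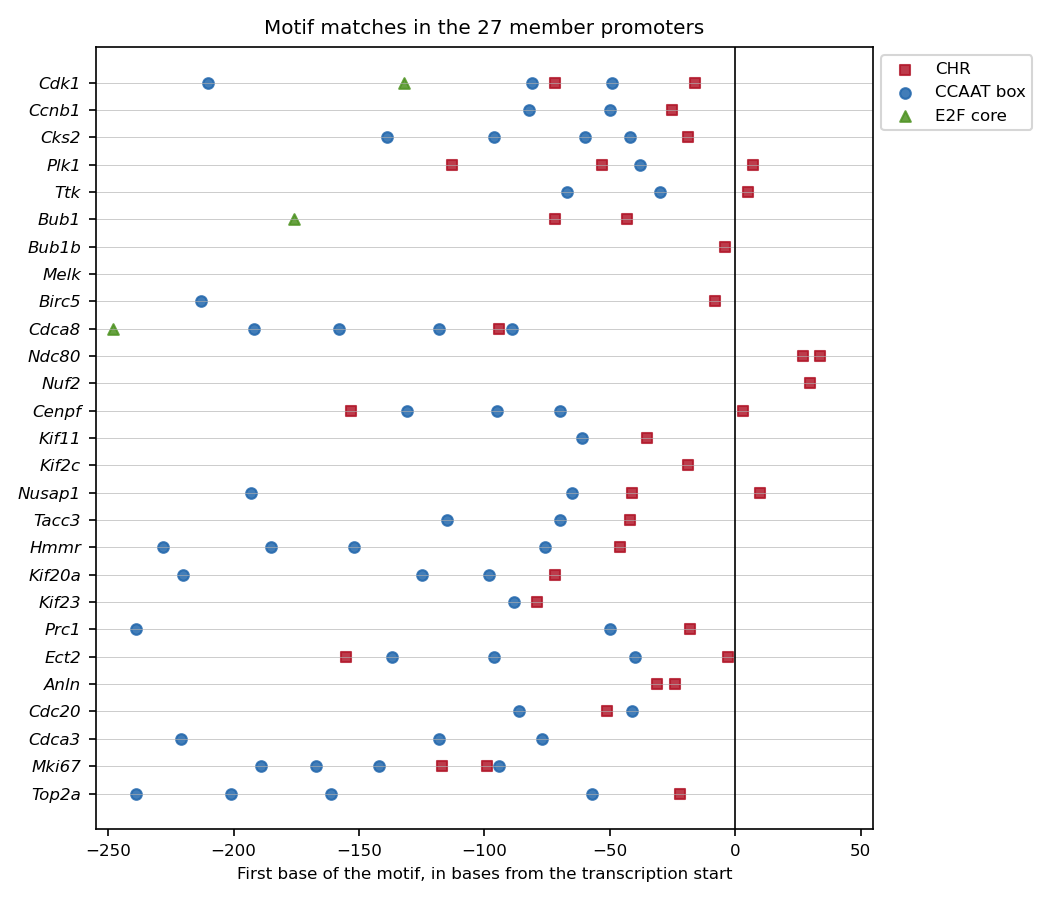
Position of each match in the 27 member promoters, in bases from the transcription start at 0; squares are CHR, circles CCAAT and triangles the E2F core, on either strand. In most rows the CHR is the match closest to the start, with CCAAT boxes upstream of it.

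Values by role follow, as CPM in the order of replicates given above (1, 2, 9, 11, 12; 5, 6, 10, 15, 16; 4, 8, 14, 18, 20). For each role they are given for up to 3 members, those of highest mean count. CPM is not scaled for gene length, so levels are compared between libraries and not between genes. Fold changes are log2 differences from edgeR's quasi-likelihood fit to all 15 libraries, written as the change ± its standard error.

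Cdk1 and its partners form the engine of mitotic entry. Cdk1, the kinase itself, was at 1.92, 3.10, 2.73, 2.39 and 4.35 CPM in naive, 2.88, 10.3, 20.2, 13.7 and 8.15 CPM in scrambled trained and 1.99, 4.87, 0.583, 10.9 and 2.48 CPM in Rnf20-labelled libraries. Ccnb1 encodes cyclin B1, the mitotic cyclin, which stood at 2.71, 3.10, 4.91, 3.39 and 3.42 CPM in naive, 3.86, 9.48, 13.7, 9.23 and 7.92 CPM in scrambled trained and 3.54, 3.89, 2.92, 8.98 and 3.97 CPM in Rnf20-labelled libraries. Cyclin A2, from Ccna2, acts in S phase and G2 and was at 2.51, 2.58, 2.91, 1.88 and 2.99 CPM in naive, 2.15, 8.11, 14.7, 7.49 and 5.38 CPM in scrambled trained and 1.44, 3.48, 1.17, 8.98 and 2.27 CPM in Rnf20-labelled libraries. In all 3, scrambled trained replicates 6, 10, 15 and 16 exceeded every naive library and replicate 5 did not. Rnf20-labelled replicate 18 also exceeded them, and for Cdk1 and Ccna2 replicate 8 did too. The log2 fold changes between scrambled trained and naive libraries were 1.93 ± 0.58 for Cdk1, 1.33 ± 0.33 for Ccnb1 and 1.55 ± 0.52 for Ccna2. Between Rnf20-labelled and scrambled trained libraries they were -1.39 ± 0.57, -0.92 ± 0.33 and -1.11 ± 0.51. Cks2, a small subunit that binds the kinase, ranged from 1.13 to 2.34 CPM in naive, 1.59 to 9.10 CPM in scrambled trained and 1.00 to 6.95 CPM in Rnf20-labelled libraries (1.32 ± 0.50 and -0.74 ± 0.49).

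Kinases of the spindle checkpoint and of mitotic progression showed the same libraries high. Bub1, a checkpoint kinase at the kinetochore, was at 3.24, 4.45, 4.97, 2.20 and 3.99 CPM in naive, 3.56, 10.7, 14.9, 11.6 and 6.56 CPM in scrambled trained and 2.27, 4.80, 3.17, 11.5 and 3.61 CPM in Rnf20-labelled libraries. Ttk (Mps1), which starts checkpoint signalling, was at 3.90, 5.04, 4.61, 6.40 and 6.13 CPM in naive, 5.15, 7.52, 10.6, 7.95 and 6.50 CPM in scrambled trained and 3.60, 5.42, 3.42, 7.87 and 3.82 CPM in Rnf20-labelled libraries. Bub1b encodes BubR1, part of the complex that inhibits the APC/C, and was at 2.05, 1.82, 2.97, 2.07 and 3.99 CPM in naive, 2.21, 7.84, 11.9, 8.18 and 5.85 CPM in scrambled trained and 1.22, 3.75, 1.67, 6.70 and 1.63 CPM in Rnf20-labelled libraries. Scrambled trained replicates 6, 10, 15 and 16 again exceeded the naive libraries for each, while for Ttk and Bub1b the Rnf20-labelled replicates 4, 14 and 20 lay below all naive ones. The log2 fold changes with training were 1.32 ± 0.43 for Bub1, 0.53 ± 0.24 for Ttk and 1.48 ± 0.47 for Bub1b, and between the trained groups -0.89 ± 0.42, -0.64 ± 0.25 and -1.26 ± 0.47. Plk1, a kinase of centrosome maturation and spindle assembly, ranged from 1.69 to 2.23 CPM in naive libraries and from 2.02 to 9.45 CPM in scrambled trained ones (1.55 ± 0.35). Melk, a kinase named for maternal embryos and common in proliferating progenitors, ranged from 0.753 to 1.23 and from 0.858 to 4.99 CPM (1.75 ± 0.47). Against scrambled trained libraries the Rnf20-labelled ones differed by -0.94 ± 0.34 for Plk1 and -0.81 ± 0.45 for Melk.

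The chromosomal passenger complex corrects faulty attachments and acts at the cleavage site. Its scaffold-binding subunits survivin (Birc5) and borealin (Cdca8) followed the other members. Birc5 was at 2.45, 2.34, 2.79, 2.57 and 3.71 CPM in naive, 3.56, 8.30, 9.15, 6.12 and 5.55 CPM in scrambled trained and 3.05, 3.27, 2.75, 6.15 and 3.61 CPM in Rnf20-labelled libraries. Cdca8 was at 2.45, 2.87, 3.39, 3.08 and 3.14 CPM in naive, 3.92, 6.41, 8.86, 8.86 and 5.50 CPM in scrambled trained and 2.10, 4.59, 2.08, 6.64 and 2.97 CPM in Rnf20-labelled libraries. For Cdca8 every scrambled trained library exceeded every naive one, and for Birc5 replicate 5 lay just under the highest naive library. Their log2 fold changes were 1.24 ± 0.27 and 1.17 ± 0.31 with training and -0.79 ± 0.26 and -0.86 ± 0.30 between the trained groups.

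Aurkb, the kinase of the same complex, did not follow its partners. It was at 8.54, 12.5, 6.24, 37.0 and 10.6 CPM in naive, 7.91, 13.4, 43.5, 28.2 and 13.9 CPM in scrambled trained and 3.49, 11.9, 5.17, 47.9 and 15.7 CPM in Rnf20-labelled libraries. Naive replicate 11 held 37.0 CPM against 6.24 to 12.5 CPM in the other naive libraries, while Birc5 and Cdca8 were at 2.57 and 3.08 CPM there. Scrambled trained replicate 6, high for nearly all other members, was at 13.4 CPM, near naive replicate 2. The 4 highest libraries were Rnf20-labelled 18, scrambled trained 10, naive 11 and scrambled trained 15. The same 4 libraries were among the 5 with most microglial marker transcript: the 16 markers summed to 1833, 1527, 1381 and 1866 CPM there, with scrambled trained replicate 6 at 1409 CPM. Microglial markers were not alone in this. In the same order, these 4 libraries held the highest oligodendrocyte precursor sums of all 15, at 1510, 1437, 1468 and 1372 CPM. They also held the lowest CA1 and pan-neuronal sums, at 6349, 5303, 7787 and 6805 CPM. The log2 fold changes of Aurkb were 0.51 ± 0.66 with training and -0.34 ± 0.66 between the trained groups, each smaller than its standard error. RefSeq's gene table for assembly GRCr8, which is not the authors' assembly, lists no gene overlapping Aurkb. Whether these reads come from the annotated gene or from other transcripts on the authors' assembly was not tested.

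Kinetochore proteins link chromosomes to microtubules. Cenpf, a large protein of the outer kinetochore and nuclear envelope, was at 2.12, 3.87, 4.24, 3.33 and 4.85 CPM in naive, 4.17, 16.0, 20.8, 13.3 and 9.51 CPM in scrambled trained and 2.55, 7.30, 1.42, 14.7 and 3.97 CPM in Rnf20-labelled libraries. Nuf2 and Ndc80 encode partners in the complex that holds the microtubule end. Nuf2 was at 2.45, 3.05, 2.97, 3.33 and 2.64 CPM in naive, 2.64, 6.01, 9.80, 7.54 and 5.14 CPM in scrambled trained and 2.27, 3.41, 1.33, 8.55 and 2.05 CPM in Rnf20-labelled libraries. Ndc80 was at 1.52, 2.23, 2.36, 2.70 and 2.99 CPM in naive, 2.70, 6.21, 9.04, 7.72 and 3.19 CPM in scrambled trained and 2.22, 3.68, 1.58, 7.01 and 2.27 CPM in Rnf20-labelled libraries. Rnf20-labelled replicate 18 exceeded every naive library for all 3, and replicate 14 was the lowest library for Cenpf and Nuf2. For Ndc80 scrambled trained replicate 16, at 3.19 CPM, lay only just above the highest naive library, and Rnf20-labelled replicate 8 exceeded it. The log2 fold changes with training were 1.79 ± 0.52, 1.11 ± 0.42 and 1.29 ± 0.41, and between the trained groups -1.08 ± 0.51, -0.81 ± 0.42 and -0.78 ± 0.40, in the order named.

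Spindle motors and microtubule binders were higher in the same libraries. Tacc3, which stabilises kinetochore fibres, was at 4.57, 7.09, 7.21, 8.47 and 7.84 CPM in naive, 7.11, 16.3, 24.4, 19.4 and 12.1 CPM in scrambled trained and 4.38, 9.52, 3.92, 22.01 and 8.50 CPM in Rnf20-labelled libraries. Tpx2, the activator of Aurora A on the spindle, was at 7.21, 8.55, 10.1, 7.97 and 5.92 CPM in naive, 6.80, 15.7, 22.2, 15.6 and 14.8 CPM in scrambled trained and 5.82, 8.13, 5.92, 13.03 and 10.1 CPM in Rnf20-labelled libraries. Kif11 encodes the kinesin that pushes the spindle poles apart and was at 2.58, 3.75, 4.55, 2.95 and 5.27 CPM in naive, 4.17, 12.5, 15.0, 11.3 and 5.85 CPM in scrambled trained and 2.82, 4.17, 1.83, 8.79 and 4.39 CPM in Rnf20-labelled libraries. In each of the 3, scrambled trained replicates 6, 10, 15 and 16 lay above all naive libraries. Their log2 fold changes with training were 1.17 ± 0.41, 0.92 ± 0.28 and 1.36 ± 0.40, and between the trained groups -0.71 ± 0.41, -0.80 ± 0.27 and -1.14 ± 0.40. The other 3 members of this role were Kif2c, a kinesin that disassembles microtubules (1.86 ± 0.57 with training), Nusap1, which bundles microtubules near chromosomes (1.39 ± 0.45), and Hmmr, a spindle and hyaluronan-binding protein (0.88 ± 0.28). Kif2c had 5 reads in naive replicate 1, or 0.331 CPM, against 1.23 to 2.49 CPM in the other naive libraries.

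Cytokinesis genes split into members that followed the group and 2 that did not. Prc1, which bundles microtubules of the midzone, was at 8.47, 13.3, 15.3, 12.7 and 15.7 CPM in naive, 11.8, 22.03, 40.4, 23.9 and 21.3 CPM in scrambled trained and 9.64, 17.4, 6.58, 24.7 and 10.1 CPM in Rnf20-labelled libraries. Anln, the actin- and septin-binding protein of the contractile ring, was at 51.1, 50.5, 58.6, 46.9 and 42.6 CPM in naive, 41.4, 37.5, 56.5, 54.2 and 39.1 CPM in scrambled trained and 62.6, 43.5, 52.5, 49.2 and 45.2 CPM in Rnf20-labelled libraries. Kif20a, a kinesin of the midzone, was at 8.40, 12.7, 10.5, 10.2 and 6.84 CPM in naive, 8.58, 10.6, 17.6, 11.8 and 10.6 CPM in scrambled trained and 7.64, 8.97, 5.92, 15.1 and 11.1 CPM in Rnf20-labelled libraries. Prc1 was above all naive libraries in scrambled trained replicates 6, 10, 15 and 16, as for most members. Anln overlapped among all 3 groups, with scrambled trained replicates 5, 6 and 16 below every naive library, and had log2 fold changes of -0.13 ± 0.13 with training and 0.15 ± 0.13 between the trained groups. Anln is also known as a septin-associated protein of myelin, which mature oligodendrocytes make without dividing. Kif20a exceeded every naive library only in scrambled trained replicate 10 and Rnf20-labelled replicate 18 (0.28 ± 0.24 and -0.28 ± 0.24).

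In RefSeq's gene table, which is for assembly GRCr8 and not for the authors' assembly, Kif20a overlaps Cdc23, an APC/C subunit at 25.8 to 36.1 CPM in these libraries. Since the strand setting of the counting is not given in the sources used here, reads of the shared stretch cannot be told apart. The same holds for Kif11 with Ide, Nusap1 with Ndufaf1, Tacc3 with Tmem129, Cdca3 with Usp5 and Rrm2 with Cys1. Similarly named pseudogenes or copies are listed for 11 members, with 4 pseudogenes for Ube2c, and how reads were divided among them is unknown. The remaining cytokinesis members were Racgap1 and Kif23, which form the centralspindlin complex, and Ect2, which centralspindlin recruits to switch on RhoA. Their log2 fold changes were 1.27 ± 0.37, 1.11 ± 0.38 and 1.63 ± 0.49 with training and -1.12 ± 0.37, -0.75 ± 0.38 and -0.98 ± 0.47 between the trained groups. Ect2 was the other member, with Cdca8, whose scrambled trained and naive libraries did not overlap: its naive values were 1.69 to 2.35 CPM and its scrambled trained values 2.76 to 9.51 CPM.

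The APC/C and its helpers end mitosis by tagging cyclin B and other proteins for destruction. Cdc20, the activator that the checkpoint holds back, was at 3.18, 4.57, 4.36, 2.51 and 5.35 CPM in naive, 2.88, 10.1, 12.2, 10.4 and 6.32 CPM in scrambled trained and 2.05, 4.31, 2.42, 9.71 and 2.90 CPM in Rnf20-labelled libraries. Cdca3, which promotes the turnover of the Cdk1 inhibitor Wee1, was at 1.65, 2.81, 2.67, 2.20 and 3.35 CPM in naive, 2.51, 8.30, 15.8, 7.95 and 6.03 CPM in scrambled trained and 1.72, 5.84, 1.75, 6.82 and 1.98 CPM in Rnf20-labelled libraries. Ube2c, the ubiquitin-conjugating enzyme that starts chains for the APC/C, was at 1.52, 1.76, 2.55, 1.00 and 1.57 CPM in naive, 1.78, 6.47, 8.63, 5.62 and 4.85 CPM in scrambled trained and 1.33, 2.09, 0.167, 6.15 and 1.77 CPM in Rnf20-labelled libraries. Ube2c had 2 reads in Rnf20-labelled replicate 14, the lowest count of any member in any library. Scrambled trained replicates 6, 10, 15 and 16 again exceeded the naive libraries for each of these genes. Their log2 fold changes with training were 1.07 ± 0.43, 1.68 ± 0.47 and 1.70 ± 0.56, and between the trained groups -0.96 ± 0.43, -1.16 ± 0.46 and -1.23 ± 0.55.

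Widely used markers of proliferation make up the last role. Mki67, which coats mitotic chromosomes, was at 7.01, 13.1, 12.97, 9.23 and 15.5 CPM in naive, 9.62, 40.7, 38.5, 32.8 and 17.7 CPM in scrambled trained and 8.25, 14.0, 8.50, 32.0 and 9.98 CPM in Rnf20-labelled libraries. Top2a, the topoisomerase that untangles sister chromatids, was at 5.56, 9.25, 11.2, 7.59 and 13.8 CPM in naive, 9.01, 45.4, 43.5, 34.2 and 22.2 CPM in scrambled trained and 7.09, 14.2, 4.00, 28.8 and 9.63 CPM in Rnf20-labelled libraries. Rrm2, the small subunit of ribonucleotide reductase, supplies deoxynucleotides and was at 2.05, 2.81, 3.64, 2.26 and 4.78 CPM in naive, 2.51, 8.76, 18.8, 12.97 and 7.98 CPM in scrambled trained and 2.22, 5.77, 1.83, 11.4 and 2.76 CPM in Rnf20-labelled libraries. Mki67 and Top2a were highest in scrambled trained replicate 6, and Rrm2 in replicate 10. The log2 fold changes with training were 1.27 ± 0.42, 1.71 ± 0.48 and 1.72 ± 0.53, and between the trained groups -0.93 ± 0.42, -1.27 ± 0.47 and -1.08 ± 0.51.

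Training under scrambled siRNA asks what fear conditioning changes in dorsal CA1. Mitotic transcripts had a median log2 fold change of 1.32, and 32 of 33 members were above 0, as were 47.2% of the 14880 genes tested, whose median was -0.01. Anln was the 1 member below 0, where 52.8% of genes lay. Medians by role ran from 0.99 for cytokinesis and 1.17 for the passenger complex to 1.68 for the APC/C group and 1.71 for Mki67, Top2a and Rrm2. The highest single values were Cdk1, Kif2c and Cenpf, at 1.93, 1.86 and 1.79, and the lowest were Kif20a at 0.28 and Anln at -0.13. All 33 members passed the filter on low counts.

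By edgeR's quasi-likelihood test 0 members had an adjusted p under 0.05, as did 0.00% of all genes. At an unadjusted p under 0.05, 30 members were higher (6.62% of all genes) and 0 lower (3.35%), with limma-voom calling 0 after adjustment and DESeq2 calling 58 genes (0.390%), of which Birc5, Ccnb1 and Plk1 are members. Scrambled trained and naive libraries did not overlap for 2 members, against 1.10% of genes in that direction, and for 0 in the other (0.659%). Nothing is read from these counts, since the members were chosen with this comparison known. Without scrambled trained replicates 10 and 15 and Rnf20-labelled replicates 14 and 18, the median was 0.98 and Aurkb stood at -0.35. In that fit 26 members were higher at an unadjusted p under 0.05 (3.83% of genes) and 1, Anln, lower (5.87%). Without the 3 libraries low in choroid plexus markers the median was 1.69.

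**Figure D3:**
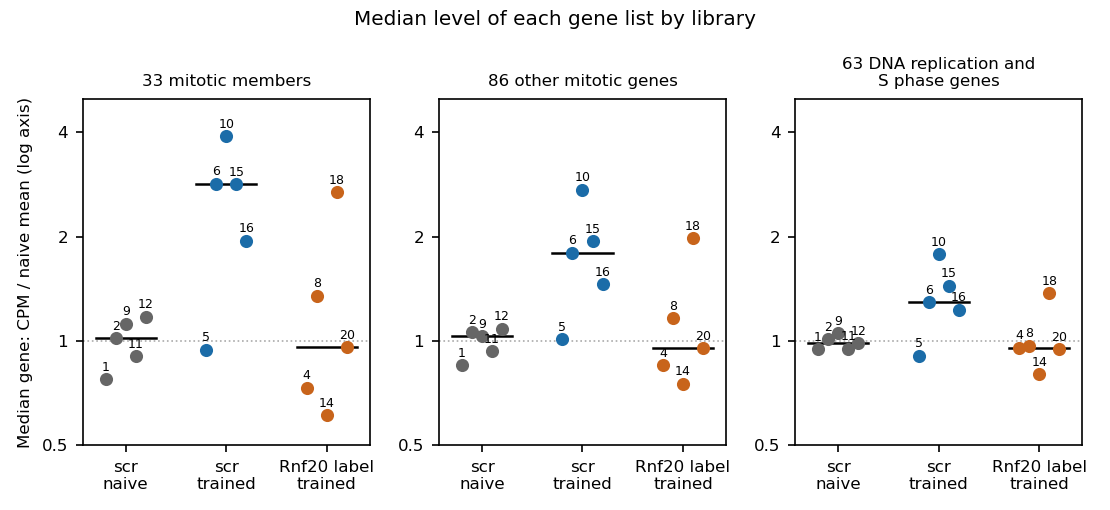
Median over genes of CPM divided by the naive mean (log axis), for the members, the other mitotic genes and the DNA replication genes; points are libraries with replicate numbers, bars are group medians and the dotted line is the naive mean. Scrambled trained replicate 5 lies within or just below the naive libraries and Rnf20-labelled replicate 18 with the other scrambled trained ones in every panel.

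Libraries labelled Rnf20 siRNA had lower mitotic transcripts on average than scrambled trained libraries, with Rnf20-labelled replicate 18 among the high libraries and scrambled trained replicate 5 among the low ones. The members had a median log2 fold change of -0.92 against scrambled trained libraries, and 32 of 33 were below 0 (49.3% of all genes, median 0.00). Anln alone was above 0, where 50.7% of genes lay. By edgeR 0 members had an adjusted p under 0.05 (0.00% of genes), as by limma-voom (0.00%) and DESeq2 (0.00672%, 1 gene). At an unadjusted edgeR p under 0.05, 20 members were lower (2.98% of genes) and 0 higher (2.63%). The groups overlapped for all 33 members, while 0.262% of genes were lower and 0.397% higher without overlap. Without Rnf20-labelled replicate 18 the median was -1.46 and 31 members were lower at an unadjusted p under 0.05 (8.50% of genes). That count was 6 without scrambled trained replicate 10 (1.87% of genes), 12 without replicate 15 (1.13%) and 13 without replicate 6 (3.24%). It was 9, 10 and 9 without Rnf20-labelled replicates 4, 14 and 20 (2.13%, 2.57% and 1.54% of genes), and 12 when only these groups were fitted (1.68%). The median was -0.84 without the 4 libraries far out on the main axis and -1.18 without the 3 low in choroid plexus markers. Rnf20 mRNA of the bulk tissue overlapped between these groups, and Rnf20 protein was not measured in these libraries. The comparison is therefore named by its labels, and whether the siRNA acted was not tested.

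Against naive libraries, the Rnf20-labelled libraries differed in training and in siRNA label, and their mitotic transcripts were near the naive level. This comparison shares libraries with both others. The median log2 fold change was 0.41, with 32 of 33 members above 0 (50.6% of all genes, median 0.00) and 1 below (49.4%). The largest were Melk at 0.94 and Kif2c at 0.78, and Ttk, at -0.11, was the member below 0. By edgeR and limma-voom 0 members were called (0.00% of genes), as by DESeq2 (0.00672%), and 0 had an unadjusted edgeR p under 0.05 in either direction (1.21% of genes higher, 1.09% lower). The groups overlapped for all members (0.249% of genes did not, in each direction). Replicate 18 decided the direction: without it the median was -0.10 and 21 members changed sign. The median was 0.03 without the 4 libraries far out on the main axis, 0.46 without the 3 low in choroid plexus markers and 0.20 by limma-voom.

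**Figure D4:**
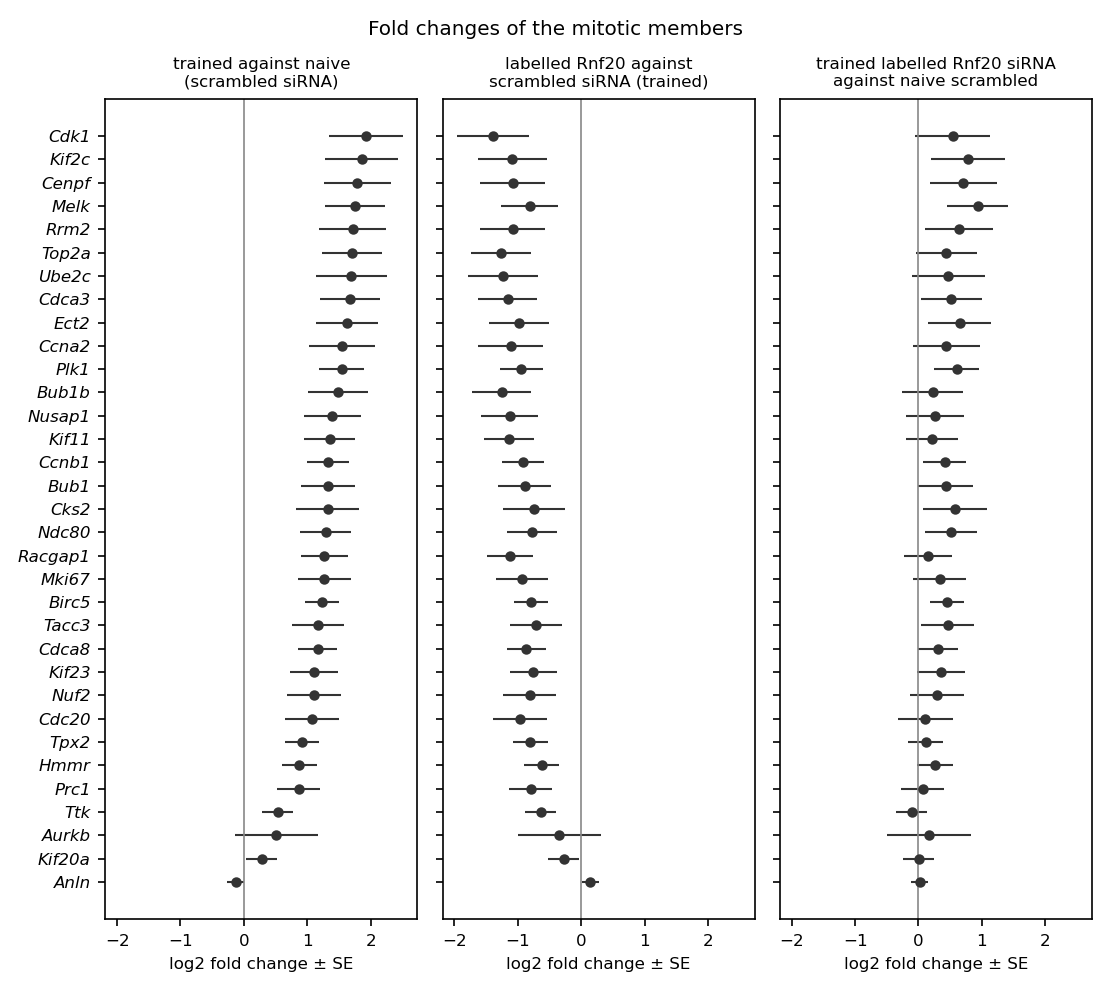
Log2 fold changes of the 33 members with standard errors in the 3 comparisons, ordered by the change with training. Nearly all members lie right of 0 in the left panel and left of 0 in the middle one, where the groups share the scrambled trained libraries, and in the right panel 32 of 33 lie right of 0 with a median of 0.41.

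Mitotic genes outside the list had the same 5 libraries highest by the median over genes of CPM over the naive mean, at smaller medians. Their summed CPM, which is set by the most abundant genes, did not follow: it was 2773 ± 198 in naive, 2704 ± 196 in scrambled trained and 2714 ± 371 CPM in Rnf20-labelled libraries (SD, n = 5), lowest in Rnf20-labelled replicate 18 and highest in replicate 14. Of 88 further genes of kinetochores, condensin, spindle and checkpoint, 86 were tested, and 82 were above 0 with training (median log2 fold change 0.88) and 81 below 0 under the Rnf20 label (-0.64). By edgeR 0 passed in any comparison after adjustment, and 57 and 30 had an unadjusted p under 0.05 in those directions (6.62% and 2.98% of all genes). Kif18a, a kinesin that damps chromosome oscillation, was at 3.19 ± 1.02 against 1.18 ± 0.15 CPM with training (SD, n = 5; log2 fold change 1.44, SE 0.36; edgeR adjusted p = 0.379). Depdc1b was at 2.28 ± 0.94 CPM in scrambled trained, 0.93 ± 0.28 CPM in naive and 0.89 ± 0.24 CPM in Rnf20-labelled libraries, with the trained groups differing by -1.35 (SE 0.32; edgeR adjusted p = 0.832).

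DNA replication and S phase genes differed less, with the same 5 libraries highest. Of 66 listed, 63 were tested, with 60 above 0 and a median of 0.38 with training, and 60 below 0 and a median of -0.39 under the label. Mcm4, a subunit of the replicative helicase, was at 25.5 ± 1.98 against 19.2 ± 1.91 CPM with training (log2 fold change 0.41, SE 0.09; edgeR adjusted p = 0.379), and Tk1, thymidine kinase, at 18.1 ± 7.37 against 7.44 ± 1.30 CPM (log2 fold change 1.28, SE 0.32; edgeR adjusted p = 0.379). By edgeR 0 of the 63 passed after adjustment, and 30 were higher at an unadjusted p under 0.05 (6.62% of all genes).

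Upstream regulators and inhibitors of the cycle differed little by their medians, while single genes among them differed more. G1 cyclins and their kinases had a median of 0.03 with training over 12 genes, 7 of them above 0, with Ccnd1 (cyclin D1) at 77.3 ± 20.3 against 52.4 ± 6.22 CPM and Cdk4 at 46.6 ± 7.88 against 36.6 ± 2.38 CPM. The 17 genes listed as DREAM, MuvB and NF-Y regulators had a median of 0.17, with 13 above 0 and a range from -0.14 to 1.32. Sites of these complexes were searched above. Rbl1 (p107) was at 6.78 ± 2.76 against 2.74 ± 0.40 CPM (log2 fold change 1.31, SE 0.39; edgeR adjusted p = 0.379), and Nfya, an NF-Y subunit, at 24.3 ± 3.09 against 18.9 ± 1.75 CPM (log2 fold change 0.37, SE 0.10; edgeR adjusted p = 0.379). CDK inhibitors and p53 targets had a median of 0.16 over 15 tested genes, with 10 above 0, and Cdkn2c, the inhibitor p18, was at 5.18 ± 1.00 against 3.30 ± 0.51 CPM. Bax, a p53 target that promotes cell death, was at 32.3 ± 4.60 against 26.5 ± 2.96 CPM. The 17 APC/C core subunits and regulators other than the members had a median of 0.06, 14 above 0, with Anapc10 at 19.6 ± 0.77 against 16.6 ± 1.13 CPM and Ube2s at 70.2 ± 4.20 against 64.8 ± 1.17 CPM. In these 4 lists 0 genes passed edgeR's test after adjustment. At an unadjusted edgeR p under 0.05, 2, 5, 2 and 1 genes were higher with training, in the order of the lists (6.62% of all genes). In each list 0 were lower (3.35%).

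Markers of cell types that can divide or enter the tissue were followed in the same libraries, and their part in the mitotic values was not tested. Injury-responsive phagocyte markers summed to 1314 to 1732 CPM in naive, 1588 to 5429 CPM in scrambled trained and 1052 to 4503 CPM in Rnf20-labelled libraries, with 15 of 16 above 0 with training (median 1.84). Microglia markers summed to 764 to 1381, 868 to 1866 and 642 to 1833 CPM, with 13 of 16 above 0 (0.34). Reactive astrocyte markers summed to 3057 to 4652, 4174 to 8020 and 2344 to 7038 CPM, with 14 of 14 above 0 (1.23). Scrambled trained replicates 10 and 15 and Rnf20-labelled replicate 18 were the 3 highest libraries for phagocyte and reactive astrocyte markers. Scrambled trained replicates 6 and 16 and Rnf20-labelled replicate 8 also lay above every naive library for both lists. Rnf20-labelled replicate 20 did so for phagocyte markers only.

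Blood and border cell transcripts were also high in the 5 libraries high for members. Erythroid and leukocyte sums lay above every naive library in all 5 and in Rnf20-labelled replicate 8, which held 731 CPM of erythroid markers. Sums of the tested border macrophage markers did so too, except in scrambled trained replicate 6. Smaller excesses were seen for erythroid markers in Rnf20-labelled replicate 4, and for leukocyte markers in scrambled trained replicate 5 and Rnf20-labelled replicate 20. Erythroid markers summed to 157 to 264 CPM in naive, 225 to 1831 CPM in scrambled trained and 181 to 758 CPM in Rnf20-labelled libraries, with 6 of 6 above 0 (2.13). Leukocyte markers summed to 90.1 to 157, 158 to 587 and 59.7 to 388 CPM, with 8 of 8 tested above 0 (1.00). The T and NK cell genes Cd3g, Cd3d, Cd2 and Nkg7 were among the markers below the count filter. Border macrophage markers summed to 7.34 to 14.8, 10.2 to 44.9 and 6.31 to 42.3 CPM, with 5 of 5 tested above 0 (1.07), and Cd209f and Ms4a7 were below the filter.

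Precursor markers had similar ranges in the 3 groups. Yet 3 of the 5 high libraries were among the highest for oligodendrocyte precursor markers and were the lowest for endothelial markers. Oligodendrocyte precursor markers summed to 958 to 1468, 833 to 1437 and 806 to 1510 CPM, with 2 of 10 above 0 with training (median -0.09). Rnf20-labelled replicate 18 and scrambled trained replicates 10 and 15 stood at 1510, 1437 and 1372 CPM, beside naive replicate 11 at 1468 CPM. The other high libraries, scrambled trained replicates 6 and 16, stood lower, at 833 and 1105 CPM. Markers of neural progenitors and newborn neurons summed to 230 to 291, 254 to 306 and 234 to 321 CPM, with 6 of 13 above 0 (-0.04), and Eomes, of intermediate progenitors, was below the count filter. Endothelial markers summed to 204 to 255, 160 to 232 and 138 to 239 CPM, with 0 of 8 above 0 (-0.18). Rnf20-labelled replicate 18 and scrambled trained replicates 10 and 15 held the 3 lowest endothelial sums of all libraries, below every naive one. Pericyte and meningeal markers summed to 157 to 189, 145 to 171 and 150 to 193 CPM, with 3 of 9 above 0 (-0.06). Choroid plexus markers summed to 1462 to 4530, 22.5 to 4370 and 92.2 to 1904 CPM (0 of 11 above 0, median -0.92), and ependymal markers to 60.9 to 91.0, 41.7 to 101 and 40.6 to 93.8 CPM (4 of 7, median 0.04). Of the markers with a row, 0 were at 0 in every library.

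**Figure D5:**
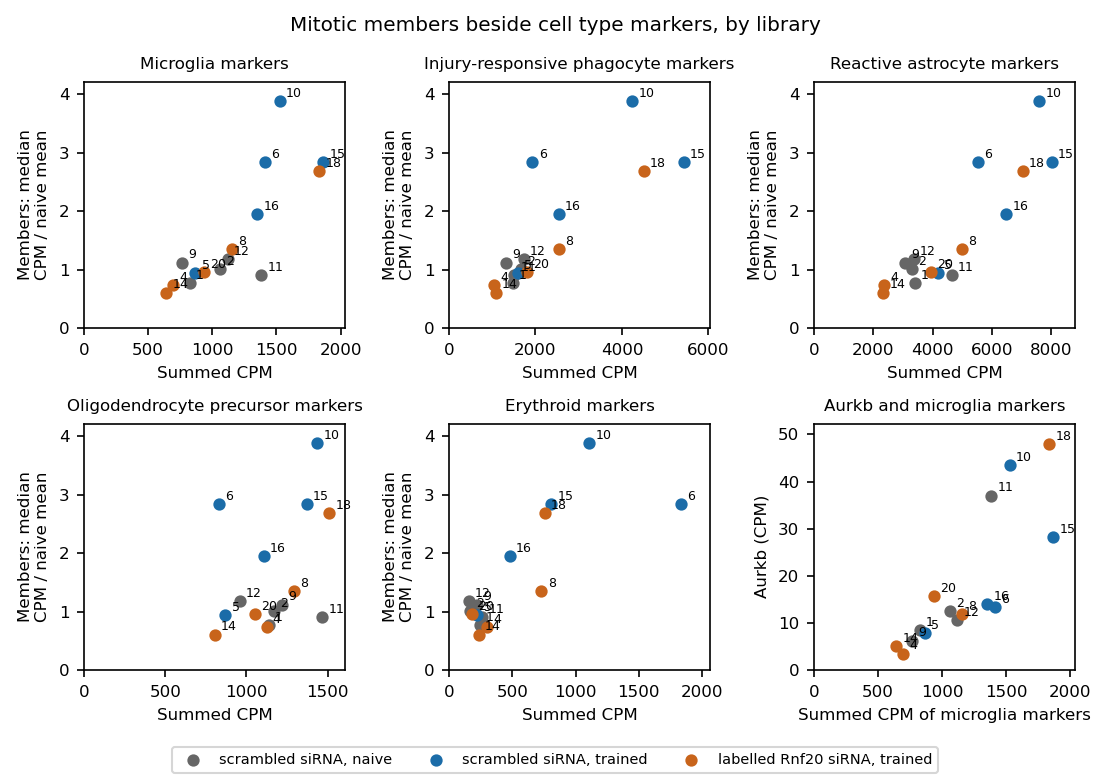
Each library's median member level (CPM over the naive mean) against the summed CPM of 5 marker lists, and Aurkb CPM against the microglia sum; colours are groups and numbers are replicates. Scrambled trained replicate 6 is high for members and erythroid markers but lies at 1929 CPM for phagocyte markers. Naive replicate 11 is high for Aurkb and for microglia and oligodendrocyte precursor markers.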

How the data were processed

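RNA-seq of dorsal CA1 was deposited as a table of raw read counts per gene for 15 libraries, which the authors made with Trim Galore, FastQC and featureCounts 2.0.1 on Rnor_6.0, per the submitters' processing notes. The library kit selected mRNA and kept strand, per the labels' protocols. For the aligner, annotation release and strand setting: not given in the sources used here. A deposited normalised table holds these counts over a size factor and was not used. Of 22314 genes, 14880 passed edgeR's filterByExpr. Counts were scaled by TMM and fitted with edgeR 4.0.16 (quasi-likelihood, robust, group only, 12 residual degrees of freedom) in R 4.3.3, with Benjamini-Hochberg adjustment over all genes tested and a threshold of 0.05. DESeq2 1.42.0, limma-voom (limma 3.58.1), other scalings and filters and left-out libraries were alternatives. Because separate animals are not stated, p-values reflect only sample-to-sample spread, which may be technical.

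The members, gene lists and left-out libraries were chosen with earlier results of these data known. Members are named by role, with every library's value for the 3 of highest mean count per role. From each other pathway list the 2 genes of smallest p in any comparison are named, since none passed the threshold. Members named besides these were chosen after their values were seen. Intervals on promoter shares cover counting error only.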

Additional observations from a re-analysis of the deposited data

Results flagged for a closer look

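A library's value was marked where its gap to the nearest other library of its group exceeded Dixon's critical share of the group's range for 5 samples. Of 105 groups of 5 examined, 9 had such a library. Chance gives about 1 in 20 for independent groups. These groups share the same libraries and the members vary together, so the count cannot be judged against that rate. In 7 of the 9 it was Rnf20-labelled replicate 18 that stood above its group. Mki67 was at 32.0 CPM there against 8.25 to 14.0 CPM in the other Rnf20-labelled libraries, Bub1 at 11.5 against 2.27 to 4.80 CPM, Ccnb1 at 8.98 against 2.92 to 3.97 CPM and Nuf2 at 8.55 against 1.33 to 3.41 CPM. Cks2 was at 6.95 against 1.00 to 2.57 CPM, Birc5 at 6.15 against 2.75 to 3.61 CPM and Aurkb at 47.9 against 3.49 to 15.7 CPM. Aurkb also stood apart in naive replicate 11, at 37.0 CPM against 6.24 to 12.5 CPM. The members' summed CPM was low in naive replicate 1, at 156 against 201 to 214 CPM.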

How the results depend on the processing

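Of 121 values of the main results under other settings, 117 moved by less than the spread between libraries, kept their count or, for promoter shares, stayed inside the exact 95% interval. For median log2 fold changes that spread was an SD of 0.68, wider than the whole Rnf20-labelled against naive median of 0.41. The turn of that median to -0.10 without Rnf20-labelled replicate 18 is thus among the 117, so this tally is a lenient one. The counts of members called had little room to move, since edgeR called 0 of all genes in each main comparison. The 1782 recomputed fold changes of single members each moved by less than that member's own SD between libraries, which is wide for Aurkb: its change with training turned from 0.51 to -0.35 without the 4 libraries far out on the main axis. The count of members called with training, 0 by edgeR, was 3 by DESeq2. The members' summed CPM in naive libraries, 197, was 126 without the 3 members of highest mean count, Anln, Mki67 and Top2a. In only the 150 bases before the start, a CHR match was present in 70.4% of member promoters and TTTGAA in 44.4%, against 14.9% and 9.12% of all promoters. Leaving out single libraries, the median log2 fold change of the members ranged from 1.11 to 1.52 with training, from -1.46 to -0.70 between the trained groups and from -0.10 to 0.54 between Rnf20-labelled and naive libraries, with 0 members called in each. No paired analysis was possible because the 3 groups share no replicate number. Low counts limit the members most in Rnf20-labelled replicate 14, which had the smallest total.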

Other observations

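Mitotic level and glial injury markers did not order all trained libraries alike. Naive libraries reached at most 1732 CPM for phagocyte and 4652 CPM for reactive astrocyte markers. Scrambled trained replicate 6 and Rnf20-labelled replicate 8 both lay above that, with summed phagocyte markers of 1929 and 2536 CPM. Their summed reactive astrocyte markers were 5527 and 4998 CPM. Their median member level was 2.84 and 1.35 times the naive mean. Replicate 6 held the highest erythroid sum of all libraries, 1831 CPM against 731 CPM in replicate 8, and the highest Mki67 and Top2a. Scrambled trained replicate 15 had the highest phagocyte sum, 5429 CPM, at a median member level of 2.84. How these levels relate was not tested.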
